A study of Mus musculus with 9 samples.

Results

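The genes described here are 48 genes of the cell division cycle, 19 that act in S phase or in its preparation and 29 that act in mitosis. They were taken as a list of gene symbols, and all 48 were found among the 29915 rows of the deposited count table. RNA of mouse embryonic fibroblasts (MEFs), connective tissue cells grown from mouse embryos, was compared between 1 line labelled mutator (5 libraries) and 1 wild-type (WT) line (4 libraries). Neither line was treated; per the labels' protocols, 300000 cells of each line were seeded per well of 6-well plates and harvested after 48 h. The labels give the genotype as mutator only. Mutator mice are best known as Polg mutants with an error-prone mitochondrial DNA polymerase, but neither the allele nor the strain and embryo age behind these lines are given in the labels. Each genotype is represented by 1 line and each library by 1 well, so p-values measure the spread between wells, which is technical, and genotype cannot be told apart from any other difference between the lines. Poly(A)-selected, strand-specific libraries held 32045662 to 49511365 counts in mutator and 26341230 to 36238653 counts in WT.

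A dividing cell copies its DNA once in S phase and separates the copies in mitosis. Before S phase, ORC, CDC6 and CDT1 load the ring-shaped MCM2-7 helicase on replication origins, and the kinases and factors that include cyclin E, CDC45, GINS and MCM10 then switch it on. Genes of this stage are driven largely by E2F transcription factors, which the retinoblastoma protein holds back in resting cells. Mitotic genes are switched on later, by FOXM1 and B-MYB with the MuvB complex, which binds a promoter element called the cell cycle genes homology region (CHR) often found near CCAAT boxes. Embryonic fibroblasts divide in culture, so RNAs of both sets are present in these cells.

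The promoters of the members carry these elements, and 6 are shown as examples of the CHR and E2F matches. The RefSeq promoter table for GRCm38.p6 (the mm10 assembly) held 39 windows of 300 bases, 250 before to 50 after a start, for 36 of the 48 members. A CHR match, taken as TTTGAA or TTCGAA on either strand, was found in 20 of 25 windows of mitosis members (80%) and in 3 of 14 windows of S phase members (21.4%), against 19.2% of all 32851 windows of the table. An E2F match, taken as TTTGGCGC, TTTCCCGC, TTTCGCGC or TTTGCCGC on either strand, was found in 1 of the 25 mitosis windows (4%) and in 7 of the 14 S phase windows (50%), against 2.26% of all windows. CCAAT on either strand was found in 84% of the mitosis windows and 71.4% of the S phase windows, against 37.4% of all windows. Overlapping matches of 1 element were counted separately, and a match describes letters, not binding. The stretches below run from 150 bases before the start to 30 bases after it, on the gene's own strand. Capitals mark CHR matches in the first 4 sequences and E2F matches in the last 2.
Ect2: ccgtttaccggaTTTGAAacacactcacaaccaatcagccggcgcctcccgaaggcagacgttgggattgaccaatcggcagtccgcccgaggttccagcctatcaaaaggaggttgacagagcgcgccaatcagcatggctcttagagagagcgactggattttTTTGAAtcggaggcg
Cdc20: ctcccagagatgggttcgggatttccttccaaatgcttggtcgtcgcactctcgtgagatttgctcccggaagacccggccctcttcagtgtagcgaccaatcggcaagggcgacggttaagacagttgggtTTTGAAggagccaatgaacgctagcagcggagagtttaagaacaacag
Cdk1: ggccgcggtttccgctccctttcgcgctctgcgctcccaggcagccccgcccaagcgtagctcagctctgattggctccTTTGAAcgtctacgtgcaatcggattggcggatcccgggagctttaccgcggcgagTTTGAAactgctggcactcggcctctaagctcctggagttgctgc
Ccnb2: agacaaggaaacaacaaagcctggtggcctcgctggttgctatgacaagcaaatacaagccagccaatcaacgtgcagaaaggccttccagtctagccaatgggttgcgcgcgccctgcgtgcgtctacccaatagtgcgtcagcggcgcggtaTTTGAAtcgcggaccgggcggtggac
Mcm6: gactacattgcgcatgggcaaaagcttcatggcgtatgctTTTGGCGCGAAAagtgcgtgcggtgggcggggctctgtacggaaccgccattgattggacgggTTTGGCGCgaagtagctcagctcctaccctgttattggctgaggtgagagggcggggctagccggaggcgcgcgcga
Cdc6: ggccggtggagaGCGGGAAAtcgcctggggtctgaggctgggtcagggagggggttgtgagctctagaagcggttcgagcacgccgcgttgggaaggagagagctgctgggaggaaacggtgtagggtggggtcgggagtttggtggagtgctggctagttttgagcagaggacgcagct
These stretches lie at chr3:27153825-27154004, chr4:118437314-118437493, chr10:69352883-69353062, chr9:70421525-70421704 and chr1:128359676-128359855 on the minus strand and at chr11:98908001-98908180 on the plus strand. Ect2 and Cdc20 were among the members that fell most in mutator and Ccnb2 was the mitosis member with the highest fold change, and all 3 windows hold a CHR match and a CCAAT box. Among the mitosis members, the windows of Cenpe, Birc5, Ccnb1, Mad2l1 and Nusap1 held no CHR match. Cenpe, Birc5 and Ccnb1 fell (log2 fold changes -0.91, -0.32 and -0.27), Mad2l1 rose (0.20) and Nusap1 did not pass (0.03). The windows of Ccne1, E2f1, Birc5, Mad2l1 and Nusap1 held none of the 3 elements in the spellings searched. In Mcm6 a pair of overlapping E2F matches stands upstream of a further one.

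**Figure D1:**
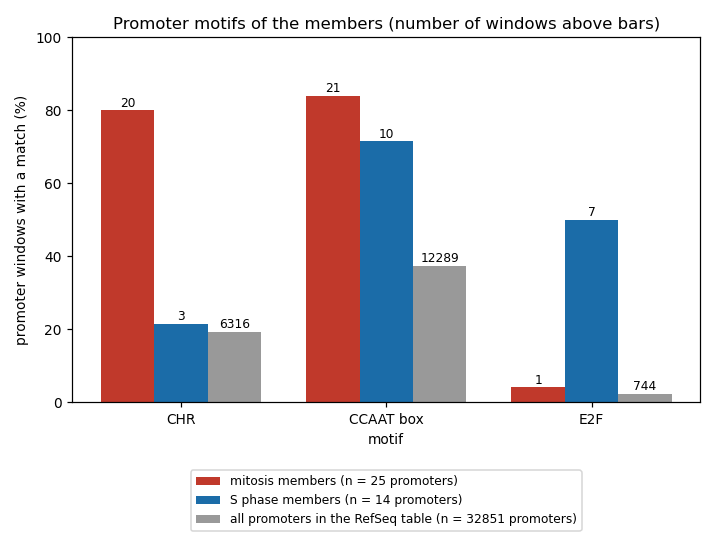
Share of promoter windows (%) with at least 1 match of each element, for mitosis members (25 windows), S phase members (14 windows) and all 32851 windows of the RefSeq table; the number above each bar counts windows. CHR matches were found in 80% of mitosis windows and E2F matches in 50% of S phase windows.

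RNAs of both phases were lower in mutator MEFs for most of the members that changed, by small amounts. Of the 48 members, 47 passed the filter on low counts and were tested with all other genes (13345 in total; edgeR quasi-likelihood test, Benjamini-Hochberg adjusted p under 0.05, log2 fold changes as mutator over WT). Among 19 S phase members 11 fell and 7 rose, and Mcm10 did not pass. Among 28 tested mitosis members 15 fell and 7 rose, and 6 did not pass. Over all tested genes 39.2% fell and 40.7% rose, so a call of either kind was common, and falls took 57.9% of the S phase members and 53.6% of the mitosis members. Of the 23 tested mitosis members not on chromosomes 3 or 4, 10 fell (43.5%), 7 rose and 6 did not pass. Of the 18 S phase members not on chromosomes 3 or 4, 10 fell (55.6%), 7 rose and 1 did not pass. Both sets keep members on chromosomes 2 and 9, none of which fell. Off chromosomes 2, 3, 4 and 9, 20 of the 28 tested members of both phases fell (71.4%) and 7 rose (25%). The median log2 fold change was -0.15 for S phase members and -0.09 for mitosis members, against 0.01 for all genes tested. The changes were small: the median absolute log2 fold change was 0.27 for S phase members and 0.18 for mitosis members, against 0.35 for all genes. A change of at least 1.5-fold was reached by 5 members, Ect2, Cdc20, Cenpe, Ccna2 and Ccne2, all lower; among all genes, 31.8% changed by that much, 13.7% lower and 18.1% higher. The wells of the lines did not overlap for 37 of the 47 tested members, 23 lower and 14 higher, against 71.9% of all genes (35.5% lower and 36.4% higher). Under upper quartile scaling the split of the mitosis members was 13 lower and 10 higher, and Cdt1, Pola1, Top2a and Plk1 did not pass; the same 4 genes missed the threshold once genes that did not reach 10 CPM in 4 libraries were dropped. In bulk RNA, fewer cells in a phase and less RNA per cell in that phase cannot be told apart.

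Summed over the S phase members, the level was 3175, 3178, 3142, 3159 and 3112 CPM (counts scaled to library size after TMM, a normalization for differences in library composition) in mutator wells 1 to 5, against 3434, 3459.9, 3436 and 3487 CPM in WT wells 1 to 4. The mitosis members summed to 6537, 6433, 6408, 6229 and 6265 CPM in mutator wells, against 7488, 7619, 7442 and 7345 CPM in WT wells. Neither sum overlapped between the lines. The sum of the mitosis members divided by that of the S phase members was 2.02 ± 0.033 in mutator (SD, n = 5) and 2.16 ± 0.041 in WT (SD, n = 4). These ratios, 1.97 to 2.06 in mutator and 2.11 to 2.20 in WT, did not overlap either. They include 5 mitosis members on chromosomes 3 and 4, all lower, with a median log2 fold change of -0.91. The 23 other tested mitosis members had a median of -0.03, and the 18 S phase members off those chromosomes -0.12. There the mitosis median was less negative than the S phase median, the opposite direction to the ratio. A ratio without the members on chromosomes 3 and 4 was not computed, so the lower ratio in mutator is not read as a shift between the phases. The spread between wells was small, with a median coefficient of variation of 2.27% in mutator and 2.35% in WT for S phase members, and 2.39% in either line for mitosis members. Cdt1 varied most among all members, with 9.45% between the mutator wells. Values per well are given below in the order of wells 1 to 5 for mutator and 1 to 4 for WT.

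**Figure D2:**
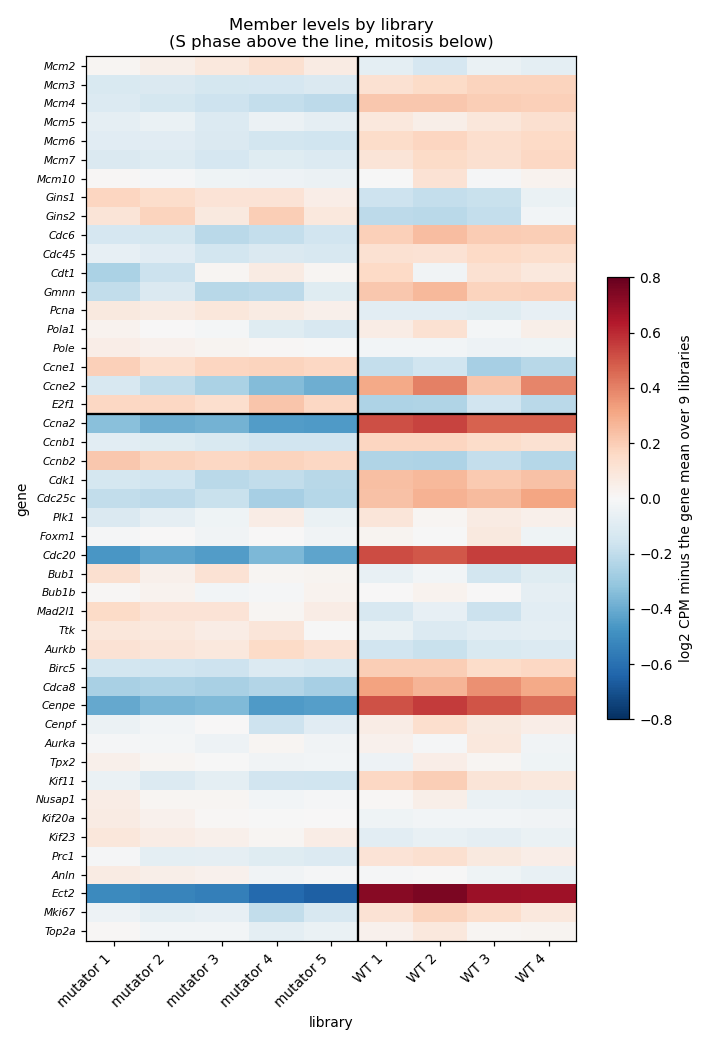
Level of the 47 members with counts in each of the 9 libraries (columns, 5 mutator and then 4 WT), as log2 CPM minus the gene's mean over the 9 libraries (colour). S phase members stand above the horizontal line and mitosis members below it; Ect2, Cdc20, Cenpe and Ccna2 show the widest gap between the lines, and the S phase set holds rows of both directions.

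Of the 6 subunits of the MCM2-7 helicase, the motor that unwinds DNA at the fork, 5 fell and Mcm2 rose. Mcm4 fell most. It had 316, 308, 303, 298 and 294 CPM in mutator wells, against 394, 395, 390.4 and 389 CPM in WT wells, and the groups did not overlap (log2 fold change -0.37 ± 0.023 (SE), adjusted p = 4.68e-11). Mcm3 (-0.28), Mcm6 (-0.27), Mcm7 (-0.25) and Mcm5 (-0.16) fell by less, as log2 fold changes, and none of them overlapped between the lines. Mcm2 had 313, 320.3, 328, 339 and 323 CPM in mutator wells, against 293, 282, 298 and 293 CPM in WT wells, which is higher in every mutator well than in any WT well (log2 fold change 0.15 ± 0.025 (SE), adjusted p = 2.08e-05). With the median of chromosome 6 subtracted, Mcm2 was at 0.02 and missed the threshold. The subunits act as a ring with 1 copy of each, so their levels were also compared per kilobase of the longest coding transcript in GENCODE vM21. On that scale Mcm2 made up 17.5% ± 0.52 of the 6 subunits in mutator (SD, n = 5) and 13.7% ± 0.31 in WT (SD, n = 4), where it was the lowest of the 6. Mcm4 made up 15.4% ± 0.38 in mutator, the lowest there beside Mcm5 with 15.8% ± 0.22, against 17.3% ± 0.26 for Mcm4 in WT. Reads of Mcm7 may be split with a processed pseudogene of 97.7% identity, Gm5487, and its exons overlap Cops6 on the other strand.

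Cdc6, Gmnn and Cdc45 fell, and genes of the GINS complex, which turns the helicase on, moved both ways. Cdc6, which recruits the helicase to origins, had 69.3, 69.1, 65.5, 66.8 and 68.3 CPM in mutator wells, against 86.7, 90.2, 87.6 and 87.3 CPM in WT wells (log2 fold change -0.38 ± 0.028 (SE), adjusted p = 5.27e-10). Gmnn encodes geminin, which blocks CDT1 once replication has begun. It fell 1.30-fold, with 50.4, 53.3, 49.5, 49.9 and 53.9 CPM in mutator wells, against 67.1, 69.1, 65.2 and 65.5 CPM in WT wells, and neither gene overlapped between the lines. Cdc45, a subunit of the active helicase, had a log2 fold change of -0.24 with no overlap. Cdt1, the loader that geminin inhibits, had 52.2, 55.2, 62.99, 65.2 and 62.8 CPM in mutator wells, against 69.4, 61.1, 67.7 and 65.98 CPM in WT wells; its groups overlapped (log2 fold change -0.15, adjusted p = 0.0248), and the adjusted p was above 0.05 without any 1 of WT wells 1, 3 or 4 or mutator wells 1 or 2. Gins2 had 67.4, 71.05, 66.3, 71.8 and 66.5 CPM in mutator wells, against 54.4, 54.1, 54.98 and 61.9 CPM in WT wells (log2 fold change 0.29 ± 0.041 (SE), adjusted p = 3.98e-06). WT well 4 stood apart from the other WT wells for Gins2 and Gins1, and exons of Gins2 overlap those of Gse1 on the other strand. Gins1 rose as well, with 25.4, 24.9, 24.4, 24.4 and 23.5 CPM in mutator wells, against 20.1, 19.8, 20.01 and 21.8 CPM in WT wells, but with the median of chromosome 2 subtracted it was at -0.05, which missed the threshold. The other GINS genes, Gins3 (-0.15) and Gins4 (-0.37), fell. Mcm10, an initiation factor, was 65.04 ± 1.02 CPM in mutator and 67.8 ± 2.70 CPM in WT (SD, n = 5 and 4) and did not pass (log2 fold change -0.06, adjusted p = 0.0826). With the median of chromosome 2 subtracted, Mcm10 was at -0.37 and passed.

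Among the polymerase and clamp members, Pole and Pola1 differed by little and Pcna rose. Pcna, the sliding clamp that holds polymerases on DNA, had 346, 343, 349, 343 and 338 CPM in mutator wells, against 309, 309, 307 and 313 CPM in WT wells, without overlap (log2 fold change 0.15 ± 0.02 (SE), adjusted p = 1.62e-06); relative to the median of chromosome 2 its log2 fold change was -0.16. Pole, the catalytic subunit of the leading strand polymerase, differed by a log2 fold change of 0.05 (adjusted p = 0.0291). Pola1, the catalytic subunit of the polymerase that extends primers, differed by -0.10 (adjusted p = 0.0161) with overlap between the lines. Neither polymerase gene passed relative to the median of its chromosome. Pole did not pass when any 1 of 5 wells (mutator 1 or 2, WT 1, 3 or 4) was left out, and Pola1 did not pass without mutator well 5. Pcna reads may be split with a processed pseudogene, Pcna-ps2, of 99.2% identity.

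The cyclin E genes moved in opposite directions. Cyclin E binds CDK2 and starts S phase, and its 2 genes are both E2F targets. Ccne1 had 42.98, 41.4, 42.5, 42.7 and 42.3 CPM in mutator wells, against 33.00, 33.8, 31.3 and 32.3 CPM in WT wells (log2 fold change 0.38 ± 0.032 (SE), adjusted p = 3.89e-09). Ccne2 had 70.7, 67.4, 64.8, 60.9 and 59.01 CPM in mutator wells, against 95.3, 102, 90.2 and 101 CPM in WT wells (log2 fold change -0.59 ± 0.048 (SE), adjusted p = 2.21e-09). In each gene the groups were apart, Ccne1 higher and Ccne2 lower in mutator. Per kilobase of transcript, the level of Ccne1 divided by that of Ccne2 was 0.99 ± 0.074 in mutator and 0.504 ± 0.021 in WT (SD, n = 5 and 4). Ccne2 lies on chromosome 4 and overlaps Ints8 on the other strand. Relative to the chromosome medians the directions were the same, 0.33 for Ccne1 and -0.24 for Ccne2; with a GC and length trend removed too, Ccne2 was at -0.08 and did not pass (adjusted p = 0.159). E2f1, an E2F that activates S phase genes, had 90.4, 90.6, 88.6, 94.3 and 90.6 CPM in mutator wells, against 68.03, 68.4, 72.7 and 69.4 CPM in WT wells (log2 fold change 0.39 ± 0.029 (SE), adjusted p = 7.72e-10), higher in every mutator well. Relative to chromosome 2 its log2 fold change was 0.07 (adjusted p = 0.0298), and it turned to -0.15 (adjusted p = 0.000157) when a trend with GC content and transcript length was removed too.

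**Figure D3:**
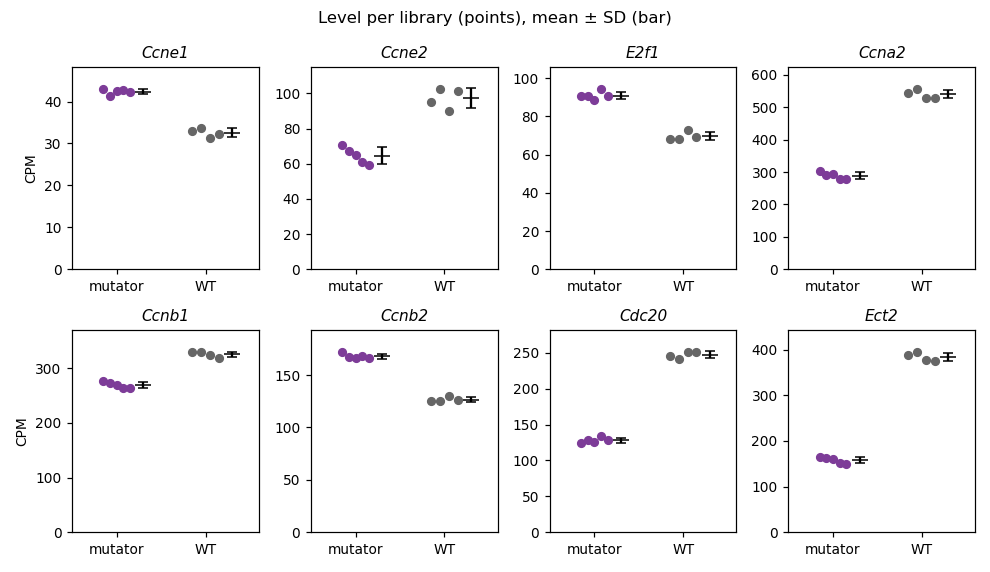
Level in CPM (vertical axis from 0) of 8 members in each mutator well (5 points) and WT well (4 points), with the mean ± SD as a bar beside the points. Ccne1, E2f1 and Ccnb2 were higher in every mutator well; Ccne2, Ccna2, Ccnb1, Cdc20 and Ect2 were lower in every mutator well.

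Among the mitotic kinases and cyclins, 5 of 7 genes fell, 1 rose and Foxm1 did not pass. CDK1 is the kinase that starts mitosis, and cyclins A2 and B are its partners. Ccna2 (chr3:36564865-36573038) had 302, 291, 293, 279 and 279 CPM in mutator wells, against 545, 556, 529 and 529.9 CPM in WT wells (log2 fold change -0.90 ± 0.026 (SE), adjusted p = 8.24e-16), a fall of 1.87-fold. Cdk1 had 288, 284, 274, 277 and 273 CPM in mutator wells, against 375, 381, 367 and 374 CPM in WT wells (log2 fold change -0.42 ± 0.022 (SE), adjusted p = 5.21e-12). Cdc25c, the phosphatase that removes the inhibitory mark from CDK1, fell 1.40-fold, to 32.5 ± 0.745 CPM in mutator, against 45.6 ± 1.08 CPM in WT (SD, n = 5 and 4). None of these 3 genes overlapped between the lines. The cyclin B genes went opposite ways, Ccnb1 with 276, 274, 269, 263 and 263 CPM in mutator wells, against 329.8, 329, 323 and 319 CPM in WT wells (log2 fold change -0.27 ± 0.022 (SE), adjusted p = 2.29e-09), and Ccnb2 with 172, 168, 167, 168 and 166 CPM in mutator wells, against 125, 125, 129.9 and 126 CPM in WT wells (log2 fold change 0.41 ± 0.022 (SE), adjusted p = 7.99e-12). Per kilobase of transcript, Ccnb2 over Ccnb1 was 1.02 ± 0.016 in mutator and 0.633 ± 0.018 in WT (SD, n = 5 and 4). Reads of Ccnb1 may be split with 4 pseudogenes of 96.6 to 99.2% identity, among them Ccnb1-ps. Relative to the median of chromosome 9, Ccnb2 was at 0.01, which missed the threshold, whereas Ccnb1 was at -0.26 relative to that of chromosome 13. Plk1, a kinase of mitotic entry and spindle poles, differed by a log2 fold change of -0.10 with overlap between the lines. Foxm1, the transcription factor that drives this set, was 249.6 ± 2.49 CPM in mutator and 255 ± 8.49 CPM in WT (SD, n = 5 and 4) and did not pass (log2 fold change -0.03, adjusted p = 0.265). With the median of chromosome 6 subtracted, Foxm1 was at -0.16 and passed. It also passed with a GC and length trend removed (-0.18) and with both corrections (-0.30). Relative to genes within 5 Mb it was at 0.04 and did not pass.

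Cdc20 fell while 3 of the 4 genes of the spindle checkpoint rose. The checkpoint proteins MAD2, BUBR1, BUB1 and TTK hold back CDC20, the activator of the anaphase-promoting complex (APC/C), until every chromosome is attached; the APC/C then marks securin and cyclin B for the proteasome. Cdc20 (chr4:118432901-118437343) had 124, 128, 126, 134 and 128 CPM in mutator wells, against 246, 242, 251 and 251 CPM in WT wells, a fall of 1.94-fold (log2 fold change -0.95 ± 0.025 (SE), adjusted p = 1.46e-16). The wells of the lines were far apart, and relative to the median of chromosome 4 the log2 fold change was still -0.60, 1 of the 3 largest falls among the members on that scale. Exons of Cdc20 overlap those of Elovl1 on the other strand. Mad2l1, which encodes MAD2, had 131, 127, 127, 119 and 123 CPM in mutator wells, against 108, 112, 104 and 111 CPM in WT wells (log2 fold change 0.20 ± 0.031 (SE), adjusted p = 1.03e-05). Bub1 (0.15) and Ttk (0.15) rose by less, and each turned to a fall relative to its chromosome median (-0.17 and -0.26). Bub1b, which encodes BUBR1, was 159 ± 2.27 CPM in mutator and 157 ± 4.47 CPM in WT (SD, n = 5 and 4) and did not pass (log2 fold change 0.02, adjusted p = 0.54).

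The chromosomal passenger complex consists of the kinase Aurora B with INCENP, survivin and borealin, and corrects faulty chromosome attachments. Its kinase gene rose, and Cdca8 and Birc5 fell. Aurkb had 115, 114, 113, 118 and 116 CPM in mutator wells, against 95.9, 93.9, 97.8 and 98.7 CPM in WT wells (log2 fold change 0.26 ± 0.025 (SE), adjusted p = 3.26e-08). Cdca8, which encodes borealin, had 70.1, 70.7, 70.1, 71.4 and 69.8 CPM in mutator wells, against 105, 101, 108 and 104 CPM in WT wells (log2 fold change -0.57 ± 0.026 (SE), adjusted p = 5.6e-13). Birc5, which encodes survivin, had 145, 144, 143, 149 and 147 CPM in mutator wells, against 184, 184, 178 and 180.0 CPM in WT wells (log2 fold change -0.32 ± 0.022 (SE), adjusted p = 2.58e-10). In all 3 genes the lines did not overlap, and relative to the chromosome medians Aurkb stayed higher (0.19) and Cdca8 (-0.21) and Birc5 (-0.38) lower. Incenp, from the list of other kinetochore genes, had a log2 fold change of -0.21 (adjusted p = 5.19e-07). Cenpe, the kinetochore motor that brings chromosomes to the spindle middle (chr3:135212563-135273540), had 152, 157, 158, 147 and 149 CPM in mutator wells, against 288, 298, 287 and 276 CPM in WT wells, a fall of 1.88-fold (log2 fold change -0.91 ± 0.027 (SE), adjusted p = 9.71e-16). Cenpf, a large kinetochore protein gene, fell by less (-0.14). Cenpa, which encodes the histone H3 variant that marks centromeres, is listed at 0 counts in all 9 libraries, so it was not tested; since every dividing cell uses it, the 0 is given as listed and not read as absence.

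Of 4 spindle assembly genes 1 fell and 3 did not pass. Kif11, the motor that pushes spindle poles apart, had 249, 240.1, 245, 233 and 232 CPM in mutator wells, against 290.3, 297, 279 and 274 CPM in WT wells (log2 fold change -0.25 ± 0.028 (SE), adjusted p = 2e-07), lower in every mutator well. Aurka, the kinase of the spindle poles (-0.04), its activator Tpx2 (0.00) and the microtubule bundler Nusap1 (0.03) did not pass. All 3 lie on chromosome 2, and relative to its median they were lower, at -0.35, -0.31 and -0.29.

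In cytokinesis, Ect2 showed the largest change of any member. ECT2 is the exchange factor that activates RhoA at the cell equator, where centralspindlin (KIF23 with RACGAP1) recruits it. Ect2 (chr3:27097222-27154253) had 165, 162, 160.3, 152 and 149 CPM in mutator wells, against 388, 395, 377 and 375 CPM in WT wells, a fall of 2.43-fold (log2 fold change -1.28 ± 0.029 (SE), adjusted p = 2.27e-17). The wells were well apart, and relative to the median of chromosome 3 the log2 fold change was -0.55. Kif23 had 169, 166, 164, 161 and 166 CPM in mutator wells, against 149.9, 152, 152 and 154 CPM in WT wells, higher in every mutator well (log2 fold change 0.12 ± 0.022 (SE), adjusted p = 7.57e-05), but -0.28 relative to chromosome 9. Its partner Racgap1, from the list of other spindle genes, had a log2 fold change of -0.27 (adjusted p = 1.04e-09). Prc1, which bundles the central spindle, fell by 0.16 on the log2 scale. Kif20a, which carries the passenger complex to the central spindle, rose by a log2 fold change of 0.05 (adjusted p = 0.0367), was at -0.06 relative to chromosome 18, and did not pass when any 1 of 5 wells (mutator 1 or 2, WT 1, 2 or 4) was left out. Anln, the actin and septin scaffold of the furrow, was 495 ± 13.6 CPM in mutator and 478 ± 8.44 CPM in WT (SD, n = 5 and 4) and did not pass (log2 fold change 0.05, adjusted p = 0.057). Mki67, the gene of the proliferation marker Ki-67, had 669, 652, 656, 600.3 and 631 CPM in mutator wells, against 745, 778, 758 and 729.5 CPM in WT wells, lower in every mutator well (log2 fold change -0.23 ± 0.03 (SE), adjusted p = 1.14e-06). Top2a, which untangles sister DNA, differed by a log2 fold change of -0.07, without overlap between the lines.

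**Figure D4:**
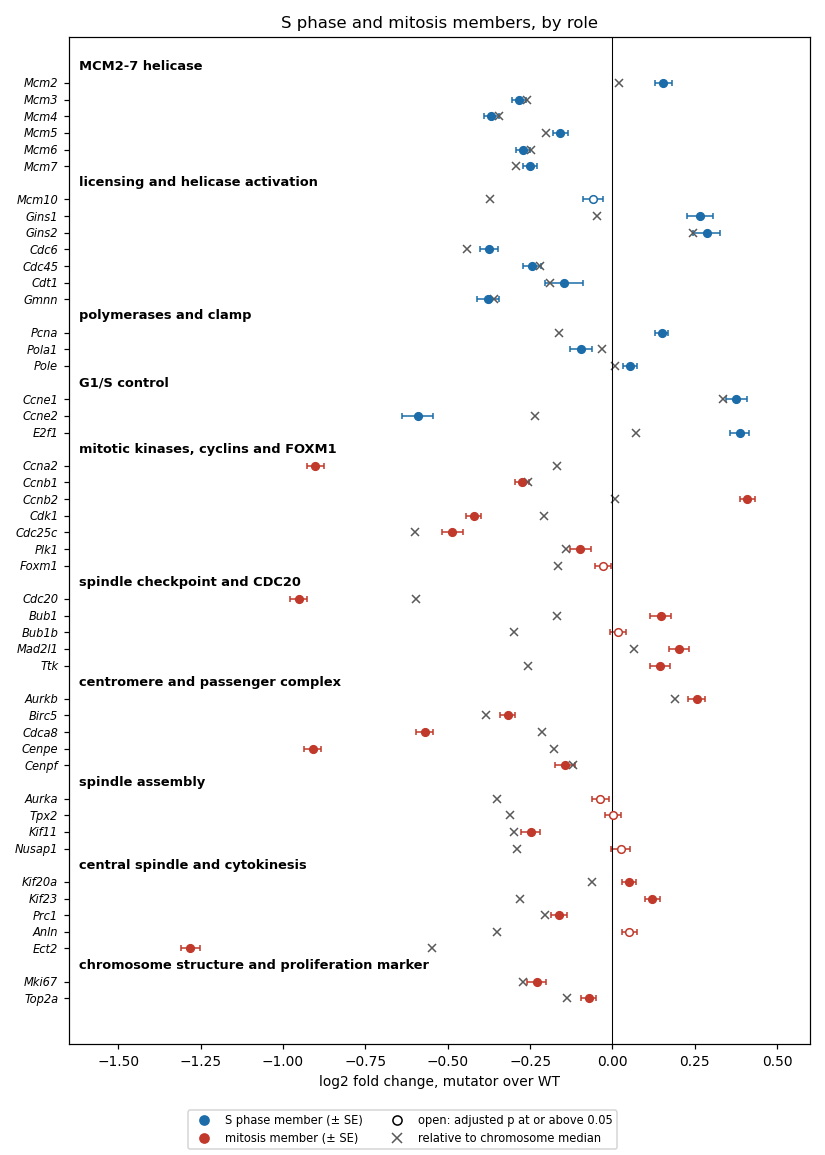
Log2 fold change (mutator over WT, horizontal axis) of the 47 tested members, grouped by role, with the standard error as a bar; open points did not pass an adjusted p of 0.05, and crosses give the value relative to the median of the gene's chromosome. Ect2, Cdc20, Cenpe and Ccna2 lie farthest left, and on the crosses' scale 37 of 47 members were lower and passed.

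The medians of whole chromosomes differed between the lines, and members on chromosomes 2, 3, 4 and 9 lay on the side of those medians or did not pass. The median log2 fold change of all tested genes was -0.73 on chromosome 3 and -0.36 on chromosome 4, and 0.31 on chromosome 2 and 0.40 on chromosome 9. All 6 members on chromosomes 3 and 4 (Ect2, Cenpe, Ccna2, Cdc20, Ccne2 and Cdca8) fell, and they include the 5 members past 1.5-fold. Of all tested genes, 84.6% on chromosome 3 and 76.1% on chromosome 4 had a log2 fold change below 0. Of 13 members on chromosomes 2 and 9, 7 rose, 6 did not pass and none fell. By sign alone, Mcm10 (-0.06) and Aurka (-0.04) were below 0, though neither passed. Of all tested genes, 16.6% on chromosome 2 and 15.4% on chromosome 9 had a log2 fold change below 0, whether or not they passed. Of 28 tested members on the other chromosomes, 20 fell (71.4%), 7 rose (25%) and 1 did not pass, against 39.2% lower and 40.7% higher among all tested genes. Chromosomes 5, 7, 8, 11 and 18 each held members of both directions. Relative to the median of chromosome 3, the log2 fold changes were -0.55 for Ect2, -0.18 for Cenpe and -0.17 for Ccna2, and all 3 passed. What sets the chromosome medians apart was not tested. The largest fall on this scale was that of Cdc25c, with a log2 fold change of -0.60 on chromosome 18, whose own median was 0.11.

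Relative to chromosome medians, mitosis members were lower almost throughout. Of 28 tested, 25 were lower and passed (89.3%), Aurkb was higher and passed, and Ccnb2 and Mad2l1 did not pass; the median was -0.23. Of 19 S phase members, 12 were lower and passed (63.2%), 3 were higher (Ccne1, Gins2 and E2f1) and 4 did not pass (Mcm2, Gins1, Pola1 and Pole); the median was -0.20. Among all genes on that scale, 39.0% were lower and 38.9% higher. When the reference was the median of tested genes within 5 Mb of the member, 24 of 28 mitosis members and 13 of 19 S phase members were lower and passed, against 38.9% of all genes, and 3 and 2 were higher, against 38.4%. With a GC and length trend removed in place of the medians, 25 of the 47 members were lower and 14 higher, against 39.4% and 39.7% of all genes. By phase, 15 of 28 mitosis members were lower and 9 higher, and 10 of 19 S phase members were lower and 5 higher. The 23 tested mitosis members not on chromosomes 3 or 4 split into 10 lower and 9 higher (median 0.02). Off chromosomes 2, 3, 4 and 9, the 28 tested members of both phases split into 19 lower and 5 higher (median -0.18). With chromosome medians and that trend both removed, 22 of 28 mitosis members and 14 of 19 S phase members were lower and passed, against 39.2% of all genes, and 3 and 2 were higher, against 36.9%. The difference between the phases was described and not tested.

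**Figure D5:**
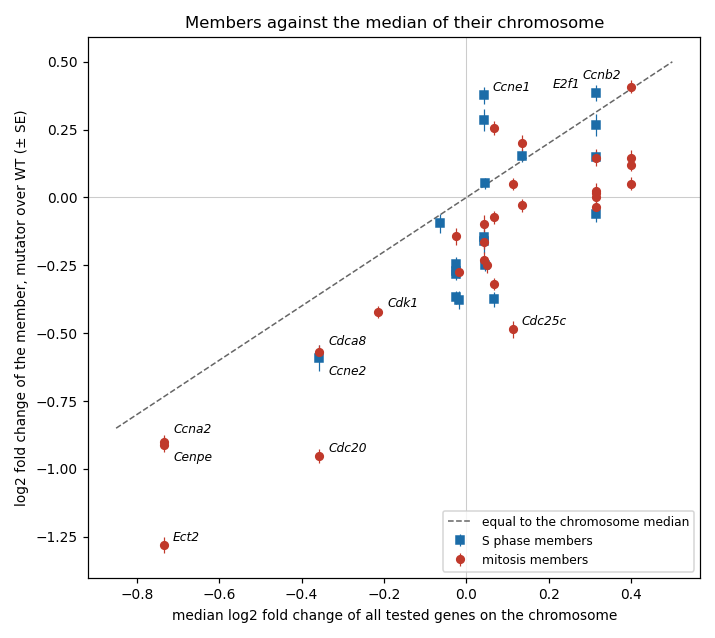
Log2 fold change of each tested member (mutator over WT, vertical axis, ± SE) against the median log2 fold change of all tested genes on its chromosome (horizontal axis); squares are S phase members, circles mitosis members, and the dashed line marks equality. Most points lie below the line, and Ect2, Cenpe and Ccna2 lie on chromosome 3, at a median of -0.73.

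Further genes of the same processes, from 5 lists that hold none of the members, gave more falls than rises in 4 lists. In these lists Orc1 is listed at 0 counts in all libraries, and Ccnb1ip1 and Lin9 were not tested. Of 48 other replication genes tested, 31 fell and 8 rose (median -0.19, against 0.01 for all genes, of which 39.2% fell and 40.7% rose). Pole3, a histone-fold subunit of polymerase epsilon, fell 1.80-fold, with a log2 fold change of -0.49 relative to the median of chromosome 4. Prim1, the primase that starts each new strand, fell 1.6-fold, to 92.1 ± 1.98 CPM in mutator, against 147 ± 4.71 CPM in WT. Pold4, the small subunit of polymerase delta, rose 1.73-fold. Of 47 chromosome and kinetochore genes, 24 fell and 13 rose (median -0.09). The condensin gene Smc4 on chromosome 3 fell 1.84-fold, but was at -0.14 relative to that chromosome's median and at 0.05 relative to genes within 5 Mb, where it did not pass (adjusted p = 0.154). Cenpq, a kinetochore gene, and Sgol1, whose product guards sister cohesion, both on chromosome 17, fell 1.70-fold and 1.69-fold. Of 39 spindle and cytokinesis genes, 25 fell and 8 rose (median -0.15). Psrc1, Depdc1a and Sass6 (the last a centriole assembly gene) had the largest changes, with falls of 2.30-fold, 2.16-fold and 2.03-fold, and all lie on chromosome 3. Relative to the median of that chromosome their log2 fold changes were -0.47, -0.38 and -0.29.

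Of 18 genes of the APC/C and its regulators, 6 fell and 8 rose (median 0.01). Relative to chromosome medians 8 were lower and 5 higher, and relative to medians within 5 Mb 11 were lower and 6 higher (median -0.16). Anapc11, the RING subunit that binds the E2 enzyme, rose 1.85-fold, with 59.8, 59.99, 59.03, 66.5 and 62.5 CPM in mutator wells, against 33.6, 30.3, 34.4 and 34.99 CPM in WT wells. Fbxo5, which encodes the APC/C inhibitor EMI1, fell 1.57-fold, with 41.8, 42.5, 44.8, 40.98 and 40.6 CPM in mutator wells, against 66.8, 67.6, 63.8 and 66.7 CPM in WT wells. Neither gene overlapped between the lines. Anapc13, a small subunit, rose 1.47-fold, with a log2 fold change of 0.15 relative to the median of chromosome 9. Of 17 tested genes of the E2F and MuvB group, 9 fell and 5 rose (median -0.19). E2f4, the main repressor E2F, fell 1.48-fold, while E2f6, another repressor, rose 1.43-fold. Rbbp4, a MuvB subunit, fell 1.45-fold, with a log2 fold change of -0.18 relative to the median of chromosome 4. Mybl2, which encodes B-MYB, rose by a log2 fold change of 0.16, against -0.16 once the median of chromosome 2 was subtracted.

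The lines differed across most of the transcriptome, with 79.9% of tested genes past the threshold. Of 12 fibroblast markers 10 reached 1 CPM in each line: the 12 summed to 18225 to 19387 CPM in mutator and 10452 to 10894 CPM in WT, while Thy1 had no counts in WT and averaged 0.0917 CPM in mutator, and Dcn averaged 0.0249 CPM in mutator and 0.0756 CPM in WT. The leukocyte list (6 markers) summed to 3.74 to 4.57 CPM in mutator and 2.37 to 2.74 CPM in WT, with Emr1 at 0 in both and Aif1 at 0 in mutator, the endothelial list (5 markers) to at most 0.531 CPM in mutator and 1.2 CPM in WT, with Emcn at 0 in both and Cdh5 at 0 in WT, and the muscle list (4 markers) to at most 0.293 CPM in mutator and 0.361 CPM in WT, with Myod1 at 0 in both. The erythroid (3 markers found) and pluripotent (3 markers) lists summed to at most 0.0401 CPM in mutator and 0.0381 CPM in WT. The epithelial list (5 markers) summed to 162 to 179 CPM in mutator, almost all Krt19, and to 130.2 to 138 CPM in WT, mostly Krt18, and the neural list (4 markers) to 20.8 to 22.3 CPM in mutator and 63.2 to 64.7 CPM in WT, mostly Mtap2. Exons of 13 members (Ccna2, Ccne2, Cdc20, Cdc25c, Cdc45, Cdca8, Gins2, Kif20a, Mcm7, Nusap1, Plk1, Pole and Prc1) overlap a gene on the other strand. Exons of 3 members (Foxm1, Mcm7 and Top2a) overlap a gene on the same strand. A pseudogene of at least 95% identity over at least 200 bases exists for 6 members (Ccnb1, Cdc6, Mad2l1, Mcm7, Mki67 and Pcna). The strand setting and the handling of all such reads in counting are not given, so their part in the values was not tested.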

How the data were processed

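RNA was measured in 9 libraries, 5 mutator and 4 WT. The deposited values are raw read counts per gene; reads were aligned with STAR 2.4.2a to mm10 and counted with HTSeq, per the submitters' processing notes. Of the annotation, the strand setting and the treatment of multimapping reads nothing is stated there. A further 5 columns of the table match no sample and were not used.

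Genes were filtered with filterByExpr, scaled by TMM and tested with edgeR's quasi-likelihood test (edgeR 4.0.16 in R 4.3.3) with Benjamini-Hochberg adjustment over all 13345 genes tested, at 0.05. CPM were computed with TMM-scaled library sizes; SE is the absolute log2 fold change over the square root of F. For the values relative to chromosome medians, the median log2 fold change of each chromosome was subtracted as an offset. Alternatives were other scalings and filters, DESeq2 1.42.0, single wells left out, a replicate block, chromosome medians and a GC and length trend. Medians within 5 Mb, and both corrections together, were added after seeing the data. The steps were tested on simulated data. Near copies were searched with BLAST 2.17.0 among GENCODE transcripts.

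The members and lists were chosen with earlier results of these data known. All 48 members were open to naming; in each pathway list the 3 genes past the threshold with the largest change and a mean of at least 1 CPM were named. Gins3, Gins4, Incenp, Racgap1 and Mybl2 fall outside this rule and were named as partners of members after their values were seen. Replicate wells differed beyond sampling noise in all 16 pairs. Counts limit precision little here, since the lowest count of a tested member in any library was 526.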

Additional observations from a re-analysis of the deposited data

Results flagged for a closer look

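In 2 of the 100 groups of 4 or 5 libraries tested, 1 library stood apart from the others of its group. Chance flags about 1 in 20 such groups. Both are GINS genes in WT well 4. Gins1 was at 21.8 CPM in WT well 4, against 20.1 CPM in the nearest WT well, and Gins2 was at 61.9 CPM, against 55.0 CPM in the nearest. Both genes were higher in mutator, and both stayed past the threshold without that well.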

How the results depend on the processing

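Neither set's median changed sign under any alternative that was run. Upper quartile scaling gave medians of -0.10 (S phase) and -0.041 (mitosis). The mitosis median was -0.066 with no filter and -0.059 with at least 10 CPM in 4 libraries. Relative to chromosome medians, S phase had 3 higher and a median of -0.20, and mitosis had 1 higher, 25 lower and a median of -0.23. With a GC and length trend removed, the S phase median was -0.19. Relative to medians within 5 Mb, S phase had 2 higher and a median of -0.19, and mitosis had 3 higher, 24 lower and a median of -0.22. With chromosome medians and the trend both removed, S phase had 2 higher and 14 lower, and mitosis had 3 higher, 22 lower and a median of -0.18; Gins1, Ccne2 and Top2a lost their calls there. The causes of these shifts were not tested.

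Signs turned for single genes as follows. Relative to chromosome medians, log2 fold changes were -0.16 for Pcna, -0.048 for Gins1, -0.17 for Bub1, -0.30 for Bub1b, -0.26 for Ttk, -0.063 for Kif20a, -0.28 for Kif23, -0.31 for Tpx2, -0.29 for Nusap1 and -0.35 for Anln. With the GC and length trend removed they were 0.03 for Pola1, -0.023 for Pole and 0.024 for Top2a. Within 5 Mb they were -0.061 for Mcm2, -0.19 for Pcna, -0.077 for Gins1, 0.029 for Pola1, -0.13 for Bub1, -0.31 for Bub1b, -0.13 for Ttk, -0.10 for Kif20a, -0.24 for Kif23, -0.36 for Tpx2, -0.30 for Nusap1 and -0.41 for Anln. With both corrections they were -0.11 for Mcm2, -0.044 for Pcna, 0.073 for Pola1, -0.055 for Pole, -0.15 for E2f1, -0.042 for Bub1, -0.29 for Bub1b, -0.14 for Ttk, -0.013 for Kif20a, -0.20 for Kif23, -0.26 for Tpx2, -0.17 for Nusap1 and -0.27 for Anln.

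Leaving out single wells gave 6 to 7 higher and 10 to 11 lower S phase members (median -0.18 to -0.11), 6 to 8 higher and 15 lower mitosis members (median -0.10 to -0.08), and 5281 to 5365 higher and 5100 to 5234 lower genes in all. Cdt1, Pola1, Top2a and Plk1 lost their calls under upper quartile scaling and under the 10 CPM filter. Anln gained a call as higher under 7 settings, and Mcm10 gained one as lower without WT well 3. Relative to chromosome medians Mcm10 (-0.37), Aurka (-0.35) and Foxm1 (-0.16) also gained calls as lower. Foxm1 gained one too with the GC and length trend removed (-0.18). With both corrections Mcm10, Aurka and Foxm1 again gained calls as lower. Same-numbered wells correlated by -0.080 to 0.027, so the numbers do not pair the samples; with a replicate block the counts were 7 and 11 for S phase and 7 and 15 for mitosis (higher and lower), and Kif20a lost its call. No scaling moved the median of all genes by more than 0.1.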
